A study of Mus musculus and Rattus norvegicus with 24 samples.

Results

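The genes described here are 7 that astrocytes use to clear transmitter, to pass water and to couple to each other: Slc1a2, Slc1a3, Slc6a11, Glul, Aqp4, Gja1 and Gjb6. They were taken by symbol from the platform annotation of whole-transcript arrays, which found 7 of 7 among 22180 mouse genes tested and 6 of 7 among 18166 rat genes tested. No rat transcript cluster (the array's set of probes for a gene) carried the single symbol Glul, so rat Glul was not analysed here. The study compared pMCAO (permanent blockage of the middle cerebral artery by a filament that stays in place) with sham surgery that left the artery open. There were 24 animals and 1 array each, 3 animals in each of 8 groups: pMCAO at 2 h, sham at 2 h, pMCAO at 6 h and sham at 6 h, in each species. All mice were C57BL/6 males aged 8 to 10 weeks, occluded on the right, and all rats were Sprague-Dawley males aged 8 to 12 weeks, occluded on the left. The tissue was a piece of penumbra measuring 3 by 3 mm, the rim of the ischaemic core, with the matching area in sham animals.

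Astrocytes take up glutamate and GABA released at synapses, and glutamine synthetase turns the glutamate into glutamine for return to neurons. Their endfeet on blood vessels are rich in the water channel aquaporin 4, which is studied in stroke for its part in brain swelling. Gap junctions built of connexins join astrocytes into networks through which ions and metabolites pass. After injury astrocytes become reactive, a state marked by genes such as Gfap and Vim.

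All values are log2 expression values, and a fold change is the pMCAO mean minus the sham mean on that scale. Tests were limma's, two-sided, with Benjamini-Hochberg adjustment over all genes of the species and a threshold of adjusted p 0.05. With 3 animals a group, that number limited the precision. Array medians lay between 6.03 and 6.06 for mouse at 2 h and between 5.92 and 5.96 at 6 h, and for rat between 6.67 and 6.75 at 2 h and between 5.82 and 5.87 at 6 h. The lowest value of an array lay between 1.39 and 1.58 for mouse at 2 h and between 0.84 and 1.00 at 6 h. For rat it lay between 2.57 and 2.73 at 2 h and between 0.96 and 1.09 at 6 h. Levels were therefore compared within a time and a species only. Whether these scales also altered fold changes between times was not tested. In bulk tissue, fewer astrocytes and less RNA per astrocyte cannot be told apart.

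Of the 7 genes, 0 passed the threshold in any of the 4 comparisons of pMCAO with sham. Over all genes, limma called 0.298% (mouse, 2 h), 7.43% (mouse, 6 h), 0.0661% (rat, 2 h) and 6.47% (rat, 6 h). At an unadjusted p under 0.05 there was 1 member in each comparison, Gjb6 for 2 h mice (7.71% of all genes), Slc1a2 for 6 h mice (23.3%), Gjb6 for 2 h rats (7.08%) and Gjb6 for 6 h rats (22.1%). Fold changes below 0 were seen for 7 of 7 members (mouse, 2 h), 5 of 7 (mouse, 6 h), 6 of 6 (rat, 2 h) and 5 of 6 (rat, 6 h), against 52.1%, 53.6%, 51.2% and 54.1% of all genes. The members' median fold change was -0.05, -0.16, -0.10 and -0.07 in that order, beside -0.01, -0.02, 0.00 and -0.02 over all genes. Gjb6 had the lowest fold change of the members in 3 of the 4 comparisons, and Slc1a2 in mouse at 6 h.

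**Figure D1:**
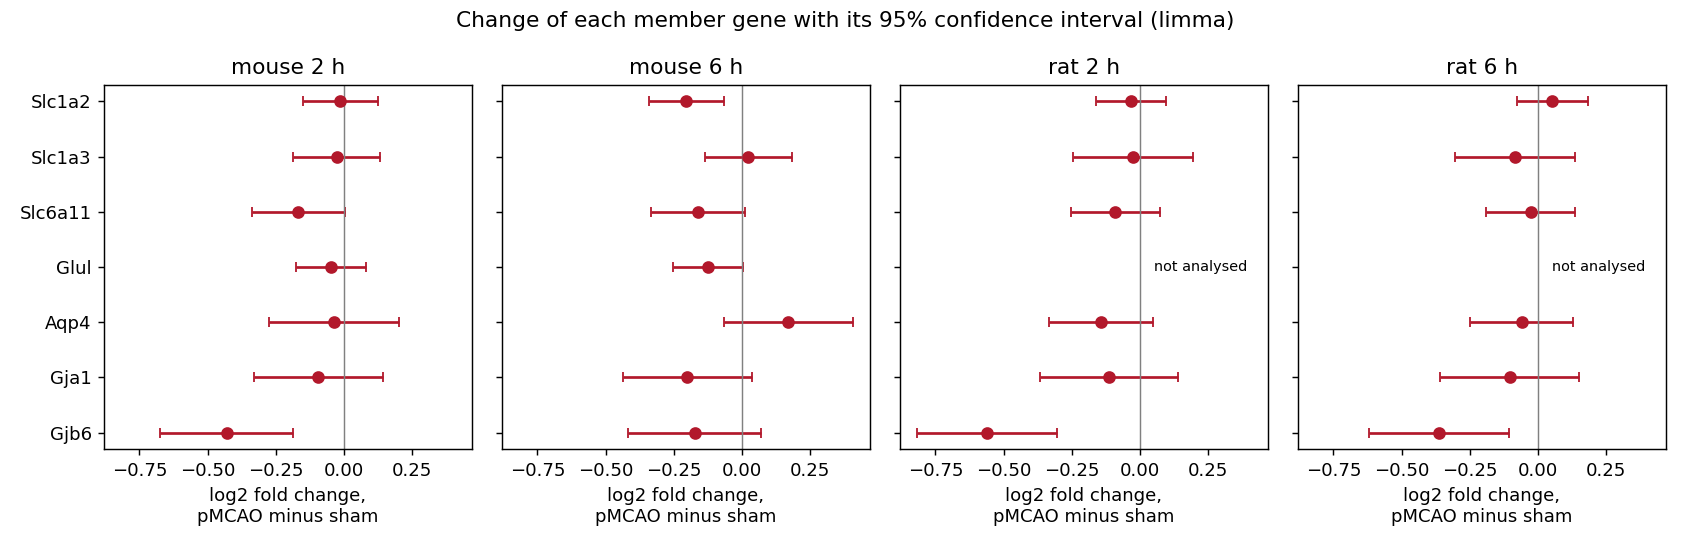
Log2 fold change (pMCAO minus sham, horizontal axis) of each member in the 4 comparisons, with 95% confidence intervals from limma, n = 3 per group. Most intervals cover 0, while those of Gjb6 (2 h mice, rats of both times) and of Slc1a2 (6 h mice) lie below it.

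Gjb6 encodes one of the main connexins of astrocyte gap junctions. It lies on mouse chromosome 14 next to Gjb2, the gene of another connexin, with Gja3 on the far side of Gjb2 and Cryl1 on the far side of Gjb6 among protein-coding genes. The promoters of this neighbouring pair are shown because Gjb6 lay lowest of the members in most comparisons while Gjb2 rose in 6 h mice. Each window is 300 bases around the annotated start (RefSeq, GRCm38.p6, minus strand), and capitals mark each CG.
Gjb6 chr14:57133562-57133861: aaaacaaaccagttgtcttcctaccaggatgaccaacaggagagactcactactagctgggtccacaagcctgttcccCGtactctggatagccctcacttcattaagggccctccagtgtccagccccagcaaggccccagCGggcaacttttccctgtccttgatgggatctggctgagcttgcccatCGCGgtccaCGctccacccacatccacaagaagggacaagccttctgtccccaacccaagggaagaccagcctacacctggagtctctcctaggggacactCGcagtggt
Gjb2 chr14:57104653-57104952: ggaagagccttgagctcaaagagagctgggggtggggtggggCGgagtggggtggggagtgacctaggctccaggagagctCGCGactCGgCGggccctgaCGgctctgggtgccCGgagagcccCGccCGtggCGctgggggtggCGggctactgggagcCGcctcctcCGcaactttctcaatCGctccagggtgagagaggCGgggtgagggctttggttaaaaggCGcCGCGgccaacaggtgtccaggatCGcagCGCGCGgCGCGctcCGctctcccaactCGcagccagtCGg
The Gjb6 window was 57.3% G or C and held 6 CG, and 56.4% of 32851 mouse promoters held at least as many. The Gjb2 window was 70% G or C and held 27 CG, a number reached by 15.5% of promoters. On either strand of these 2 windows there was no match to TGANTCA, the AP-1 motif (7.81% of promoters hold it), to TTCNNNGAA for STAT factors (8.3%) or to ACGTG, the hypoxia core (19.6%). The motifs were counted apart, whether or not they overlapped.

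Mouse Gjb6 at 2 h read 6.96, 7.05 and 7.17 in pMCAO animals, against 7.42, 7.51 and 7.54 in sham animals. Every pMCAO value lay below every sham value. The fold change was -0.43 ± 0.11 (SE; 95% interval -0.67 to -0.19), a change of -25.8% in level, with limma adjusted p = 0.275 at n = 3 per group. Of all 22180 genes, 0.523% had a fold change as low. In mouse at 6 h it read 6.40, 6.55 and 6.92 in pMCAO animals, against 6.74, 6.81 and 6.84 in sham animals. The groups overlapped through replicate 2, the pMCAO animal at 6.92. The fold change was -0.17 ± 0.11 (-0.42 to 0.07, limma adjusted p = 0.386), and without that animal it was -0.32 (limma adjusted p = 0.0508). Leaving out each animal of that comparison in turn gave -0.32 to -0.06 (limma adjusted p 0.0508 to 0.783).

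In rat at 2 h Gjb6 read 8.35, 8.73 and 8.74 after pMCAO, against 8.99, 9.23 and 9.28 after sham surgery. The groups were again apart. The fold change was -0.56 ± 0.12 (-0.82 to -0.30), or -32.2%, with limma adjusted p = 0.164, and 0.517% of the 18166 genes had one as low. In rat at 6 h it read 8.09, 8.20 and 8.39 after pMCAO, against 8.55, 8.60 and 8.62 after sham surgery, and here too the groups were apart. The fold change was -0.36 ± 0.12 (-0.62 to -0.11), or -22.3%, with limma adjusted p = 0.0904. In rat at 6 h, Gjb6 passed under 3 of 15 other settings, with adjusted p between 0.0351 (the replicate block) and 0.0444. The highest adjusted p among the 15 was 0.240. For 2 h rats it passed under 1 of 15, array weights (-0.63, adjusted p = 0.0353), and the highest there was 0.883.

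Because Gjb6 lay below sham in all 4 comparisons without passing in any, the mean of the 2 h and 6 h fold changes was tested as a contrast chosen after these values were seen. In rat that mean was -0.46 ± 0.08 (-0.64 to -0.28, limma adjusted p = 0.0106), and Gjb6 was the 1 member of 6 that fell, where 4.30% of all rat genes passed and 2.50% passed as lower. It passed under each of the 20 other settings run for it, with adjusted p between 0.00245 and 0.0379. These settings refit the same animals from which the contrast was chosen, so they do not test it anew. In mouse the mean was -0.30 ± 0.08 (-0.47 to -0.13, limma adjusted p = 0.0621), 0 of 7 members passed, and 3.11% of all mouse genes did. Without pMCAO replicate 2 of the 6 h group the mouse mean was -0.38 (adjusted p = 0.00824). Leaving out each mouse in turn gave -0.38 to -0.25 (adjusted p 0.00824 to 0.128). The mouse mean passed under 4 of 20 other settings, with adjusted p up to 0.298. The 6 h effect minus the 2 h effect of Gjb6 was 0.26 in mouse (-0.09 to 0.60, adjusted p = 0.496) and 0.20 in rat (-0.17 to 0.56, adjusted p = 0.728).

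**Figure D2:**
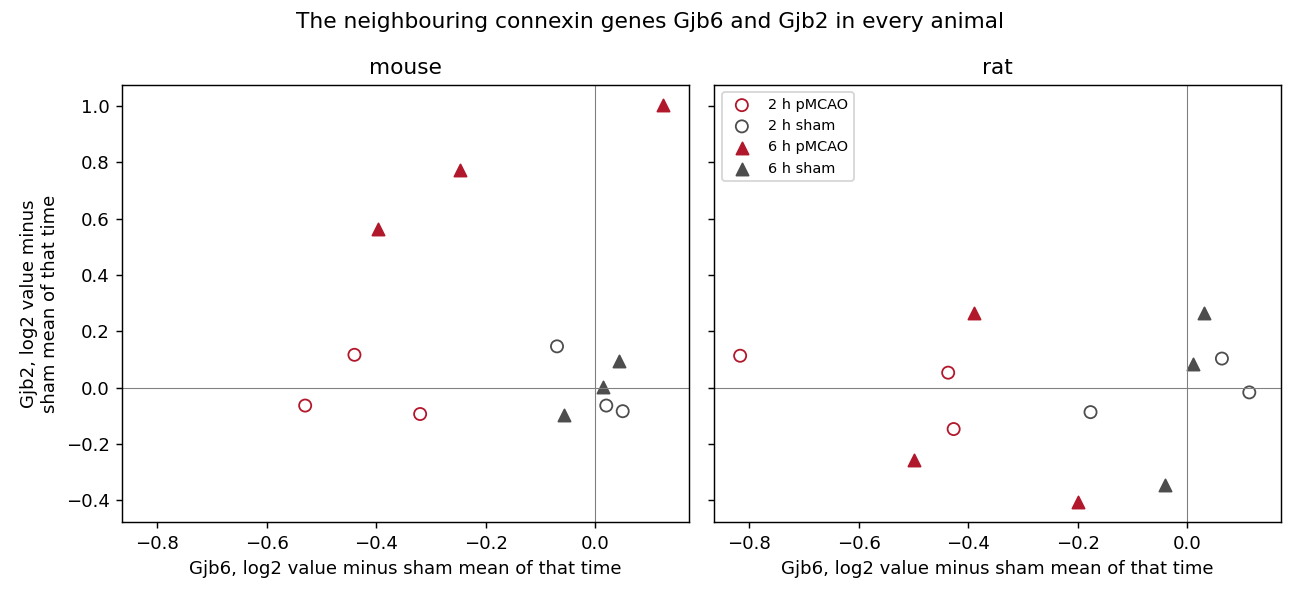
Gjb6 (horizontal axis) against Gjb2 (vertical axis), each as log2 value minus the sham mean of the same time and species, for the pMCAO and sham animals of mouse and rat (open circles 2 h, filled triangles 6 h). The 3 mouse pMCAO animals at 6 h lie above every sham animal of that time for Gjb2, and no other pMCAO group does.

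Gjb2, which is not a member but neighbours Gjb6 and belongs to the connexin list described further on, read 7.0, 7.21 and 7.44 in mouse pMCAO animals at 6 h, against 6.34, 6.44 and 6.53 in sham animals. It rose there by 0.78 ± 0.11 (limma adjusted p = 0.00357), with the groups apart. With the striatal marker level as a covariate the fold change was 0.81 and no longer passed (adjusted p = 0.0884), with the SE at 0.17. Its fold change was -0.01 in 2 h mice, 0.01 in 2 h rats and -0.13 in 6 h rats, with limma adjusted p between 0.714 and 0.995. The rat values at 6 h, 6.24, 6.39 and 6.91 after pMCAO against 6.30, 6.73 and 6.91 after sham surgery, overlapped widely. Meningeal fibroblast markers, from cells that could also carry Gjb2, averaged 6.22 to 6.38 in mouse pMCAO animals at 6 h, against 6.00 to 6.22 in sham animals, with 0 of 6 past the threshold, and their part in the Gjb2 result was not tested.

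Gja1 encodes the other main astrocyte connexin. Mouse animals at 2 h read 9.84, 9.95 and 10.03 in pMCAO animals, against 9.96, 9.98 and 10.16 in sham animals, and at 6 h 9.30, 9.50 and 9.67 in pMCAO animals, against 9.52, 9.71 and 9.84 in sham animals. The groups overlapped at both times. Rat values at 2 h were 10.65, 10.95 and 11.01 after pMCAO, against 10.88, 10.90 and 11.17 after sham surgery. At 6 h the rat values were 10.30, 10.39 and 10.43 after pMCAO, against 10.29, 10.54 and 10.60 after sham surgery. They overlapped as well. Its fold change was below 0 in each comparison, at -0.09 (95% interval -0.33 to 0.14) and -0.20 (-0.44 to 0.04) in mouse and -0.11 (-0.37 to 0.14) and -0.10 (-0.36 to 0.15) in rat, at 2 h and 6 h in turn, with limma adjusted p between 0.294 and 0.888.

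Slc1a2 encodes the transporter (EAAT2) that takes up most of the glutamate in the forebrain. In mouse at 6 h it read 9.58, 9.69 and 9.72 in pMCAO animals, against 9.82, 9.88 and 9.90 in sham animals, with the groups apart. The fold change was -0.20 ± 0.06 (-0.34 to -0.07), a change of -13.1%, with limma adjusted p = 0.0746. It passed under median centring (-0.23, adjusted p = 0.0454), with dim genes left out (adjusted p = 0.0241) and with a trended, robust spread (adjusted p = 0.0156). With the striatal marker level as a covariate it was -0.13 (adjusted p = 0.596). Those striatal markers averaged 7.28 to 7.46 in mouse pMCAO animals at 6 h, against 7.50 to 8.63 in sham animals, and 3 of 8 fell (Drd2, Tac1 and Adcy5). The covariate fit could therefore not tell their part from that of surgery.

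At 2 h mouse Slc1a2 read 10.01, 10.07 and 10.17 in pMCAO animals, against 10.07, 10.08 and 10.14 in sham animals, which overlapped fully. In rat at 2 h it read 12.46, 12.51 and 12.52 after pMCAO, against 12.53 in each sham animal, so the groups were apart by 0.01. In rat at 6 h it read 11.97, 11.97 and 12.03 after pMCAO, against 11.92, 11.92 and 11.97 after sham surgery, groups that touch at 11.97. These 3 fold changes were -0.01 (-0.15 to 0.12), -0.03 (-0.16 to 0.10) and 0.05 (-0.08 to 0.18), with limma adjusted p between 0.656 and 0.979. Quantile normalization within a time turned the last of them to -0.02.

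Slc1a3 encodes the other astrocyte glutamate transporter (EAAT1). Mouse values at 2 h were 10.23, 10.41 and 10.45 in pMCAO animals, against 10.36, 10.37 and 10.44 in sham animals, and at 6 h 10.06, 10.21 and 10.25 in pMCAO animals, against 10.11, 10.15 and 10.19 in sham animals. In rat at 2 h it read 10.63, 10.70 and 10.84 after pMCAO, against 10.56, 10.84 and 10.85 after sham surgery, and at 6 h 10.12, 10.12 and 10.18 after pMCAO, against 10.11, 10.16 and 10.40 after sham surgery. All 4 pairs of groups overlapped. Its fold changes were -0.03 and 0.02 in mouse and -0.03 and -0.08 in rat at 2 h and 6 h, with limma adjusted p between 0.690 and 0.979, and the 95% interval in rat at 6 h ran from -0.30 to 0.14.

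Slc6a11 encodes the GABA transporter most abundant on astrocytes. At 2 h the mouse values were 9.43, 9.66 and 9.71 in pMCAO animals, against 9.75, 9.76 and 9.79 in sham animals, and at 6 h 9.09, 9.20 and 9.20 in pMCAO animals, against 9.26, 9.29 and 9.42 in sham animals. Both times the pMCAO animals lay below all sham animals. The fold changes were -0.17 ± 0.08 (-0.34 to 0.00, limma adjusted p = 0.654) and -0.16 ± 0.08 (-0.33 to 0.01, limma adjusted p = 0.247). In rat at 2 h it read 9.38, 9.47 and 9.52 after pMCAO, against 9.52, 9.53 and 9.59 after sham surgery, and at 6 h 8.87, 8.88 and 9.03 after pMCAO, against 8.85, 8.99 and 9.02 after sham surgery. The 2 h groups touched at 9.52 and the 6 h groups overlapped. The rat fold changes were -0.09 (-0.25 to 0.07) and -0.03 (-0.19 to 0.14), with limma adjusted p of 0.854 and 0.882.

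Glul encodes glutamine synthetase. At 2 h it read 11.89, 11.93 and 11.97 in pMCAO animals, against 11.95, 11.99 and 11.99 in sham animals, and at 6 h 11.50, 11.64 and 11.65 in pMCAO animals, against 11.68, 11.73 and 11.75 in sham animals. The groups overlapped at 2 h and were apart at 6 h. Fold changes were -0.05 ± 0.06 (limma adjusted p = 0.899) and -0.12 ± 0.06 (-0.25 to 0.01, limma adjusted p = 0.233). A second mouse cluster with this symbol read 7.23 to 7.45 in pMCAO animals at 2 h, against 7.26 to 7.37 in sham animals, and 7.49 to 7.76 in pMCAO animals at 6 h, against 7.66 to 7.91 in sham animals, and its 2 h fold change was 0.04, so the 2 clusters differed in sign at 2 h.

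Aqp4 encodes aquaporin 4, the water channel of astrocyte endfeet. In mouse at 2 h it read 8.94, 9.20 and 9.25 in pMCAO animals, against 9.04, 9.18 and 9.28 in sham animals, and at 6 h 8.73, 8.92 and 8.92 in pMCAO animals, against 8.54, 8.65 and 8.87 in sham animals. Both pairs overlapped. Rat values at 2 h were 10.94, 10.99 and 11.18 after pMCAO, against 11.15, 11.19 and 11.20 after sham surgery, and at 6 h 10.27, 10.33 and 10.40 after pMCAO, against 10.24, 10.43 and 10.51 after sham surgery. These overlapped too. Fold changes were -0.04 (-0.27 to 0.20) and 0.17 (-0.07 to 0.41) in mouse and -0.14 (-0.33 to 0.05) and -0.06 (-0.25 to 0.13) in rat, with limma adjusted p between 0.379 and 0.965.

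**Figure D3:**
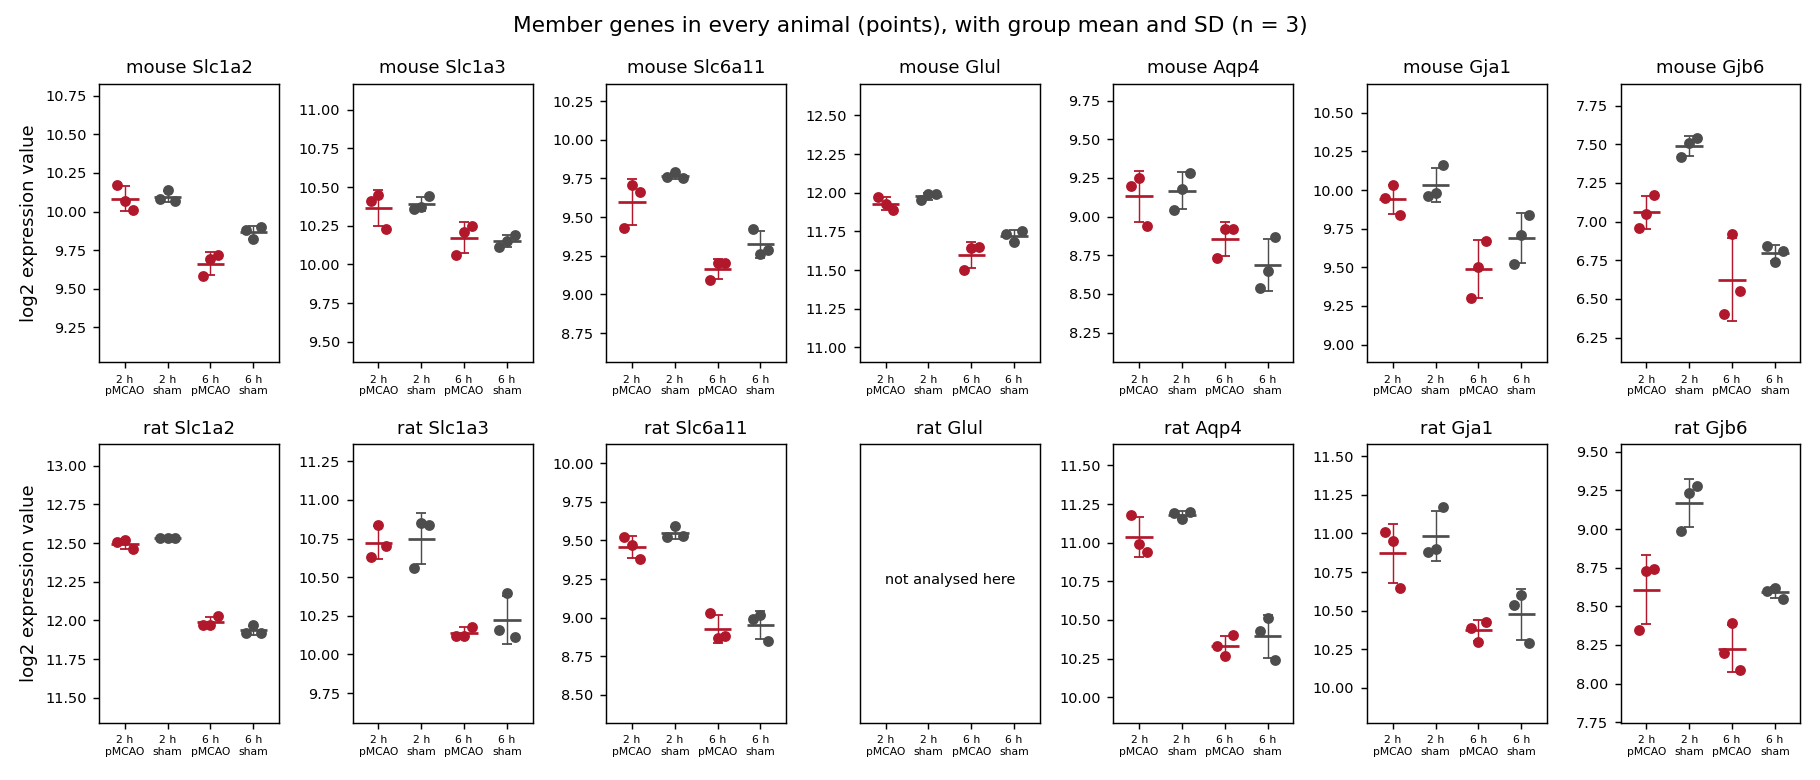
Log2 value of each member (vertical axis) in every animal, pMCAO left of sham within each time and species, with the group mean as a bar and the SD, n = 3. Gjb6 pMCAO points sit below the sham points for 2 h mice and for rats of both times; rat Glul was not analysed.

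Groups that did not overlap, with pMCAO lower, were seen for 2 of 7 members in 2 h mice (Slc6a11 and Gjb6), 3 of 7 in 6 h mice (Slc1a2, Slc6a11 and Glul), 2 of 6 in 2 h rats (Slc1a2 and Gjb6) and 1 of 6 in 6 h rats (Gjb6). Over all genes the shares were 8.39%, 14.6%, 7.57% and 14.8%, and 0 members were apart with pMCAO higher. In the mouse 6 h pMCAO group, replicate 1 had the lowest value of its group for 7 of 7 members, with a member mean of 9.24, against 9.44 and 9.42 in the other pMCAO animals. Its mean over 12 other astrocyte markers was 8.28, against 8.37 and 8.40 in those animals. In the rat 6 h sham group, replicate 2 was highest for 6 of 6 members and replicate 3 lowest for 5 of 6.

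The change of the effect between times passed for 0 members in either species, where 0.171% of mouse and 0.231% of rat genes did. Its highest value among the members was that of Gjb6 in mouse (0.26, above) and its lowest that of Slc1a2 in mouse (-0.19, -0.39 to 0.01, limma adjusted p = 0.370). The mouse effect minus the rat effect, tested over 14204 symbols matched between species, passed for 0 of 6 members at 2 h (0.0141% of symbols) and 0 of 6 at 6 h (2.27%). At 6 h the Slc1a2 effect was -0.20 in mouse and 0.05 in rat, a difference of -0.26 ± 0.09 (-0.44 to -0.08, adjusted p = 0.121 from the 2 limma fits). For Gjb6 the difference was 0.13 (-0.21 to 0.47) at 2 h and 0.19 (-0.15 to 0.53) at 6 h, with adjusted p of 0.998 and 0.629.

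Lists of related genes were read beside the members. Of other transmitter transporters, 0 of 6 passed for mice at either time or for 2 h rats, and 1 of 6 rose in 6 h rats, the neutral amino acid carrier Slc1a4 (0.59 ± 0.15, limma adjusted p = 0.0438), a call lost when any animal of the 2 groups other than pMCAO replicate 2 was left out (adjusted p 0.0919 to 0.138), as it was with the striatal covariate (adjusted p = 0.0880). Of glutamate and glutamine enzymes and carriers, 1 of 8 fell in mouse at 6 h, the aspartate aminotransferase gene Got1 (-0.22 ± 0.06, limma adjusted p = 0.0358), and 0 passed in the other comparisons (8 measured in mouse, 9 in rat). The Got1 call was lost without any 1 animal of its groups (adjusted p 0.0578 to 0.103) and with the striatal covariate (adjusted p = 0.328). Of other connexins and pannexins, Gjb2 was 1 of 9 that rose in mouse at 6 h, and 0 passed elsewhere. Other aquaporins gave 0 of 7 in all 4 comparisons, and pump and bicarbonate transport genes 0 of 4.

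Genes that anchor the endfoot or carry potassium gave 0 of 11 in mouse at both times and 0 of 9 in 2 h rats. Among 6 h rats 1 of 9 rose, the calcium-permeable channel gene Trpv4 (0.54 ± 0.12, limma adjusted p = 0.0230), and this call was lost without pMCAO replicate 1, sham replicate 1 or sham replicate 3 (adjusted p 0.0693 to 0.0743), or with the striatal covariate (adjusted p = 0.0868). Kcnj10, the main potassium channel of astrocyte endfeet, had fold changes between -0.12 and 0.10 with limma adjusted p between 0.419 and 0.982. In mouse the bicarbonate carrier Slc4a4 had 0.01 at 2 h (limma adjusted p = 0.995) and -0.31 ± 0.09 at 6 h (limma adjusted p = 0.0544). It passed at neither time.

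Reactive astrocyte genes gave higher counts in the same tissue, except in 2 h rats. Their list was chosen with earlier results of these data known, so the counts are a description and no test against the members. Over all genes, 0.149% (mouse, 2 h), 3.21% (mouse, 6 h), 0.0330% (rat, 2 h) and 2.85% (rat, 6 h) passed as higher. In mouse at 2 h 2 of 15 rose, Hspb1 (1.03) and Emp1 (0.42). Both calls were lost when any 1 animal of the 2 groups was left out (adjusted p 0.0708 to 0.237). The striatal covariate lost them too (adjusted p = 0.102 for Hspb1 and 0.0846 for Emp1). In mouse at 6 h 7 of 15 rose, led by the small heat shock protein gene Hspb1 (1.45), the oncostatin M receptor gene Osmr (1.28) and the filament genes Gfap (0.89) and Vim (0.79), with a list median of 0.59. With the striatal marker level as a covariate, 6 of these 7 calls were lost (adjusted p 0.0733 to 0.327) and that of Emp1 was kept (0.74, adjusted p = 0.0317). The lost calls had fold changes there of 1.38 for Hspb1, 1.03 for Osmr, 0.79 for Vim and 0.70 for Gfap. The SE rose with the covariate, from 0.11 to 0.17 for Vim and from 0.19 to 0.28 for Gfap. The striatal level was itself apart between pMCAO and sham in these mice. The covariate fit could therefore not tell its part from that of surgery. In rat at 2 h 0 of 14 passed, with a median of 0.19, and Hspb1 at 1.25 (limma adjusted p = 0.0655). In rat at 6 h 6 of 14 rose, led by the metalloproteinase inhibitor gene Timp1 (2.32), Osmr (2.05), Hspb1 (1.33) and Emp1 (1.26), with a median of 0.53. The calls of the last 2, Ptx3 (0.78) and S1pr3 (0.51), were both lost without pMCAO replicate 3, sham replicate 1 or sham replicate 2 (adjusted p 0.0621 to 0.115), and that of S1pr3 also without pMCAO replicate 1 or sham replicate 3. The striatal covariate also lost these 2 calls (adjusted p 0.103 and 0.118) and kept the other 4. Gfap did not pass in 6 h rats (0.37, limma adjusted p = 0.346), and Vim was not among the 6 that rose there. Several genes of the reactive list are also expressed by other cells of the tissue. The mouse Gfap call at 6 h was lost without pMCAO replicate 2, pMCAO replicate 3 or sham replicate 1 (adjusted p 0.0526 to 0.0642). It was also lost when the 6 arrays of that comparison were fitted alone (adjusted p = 0.0604).

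**Figure D4:**
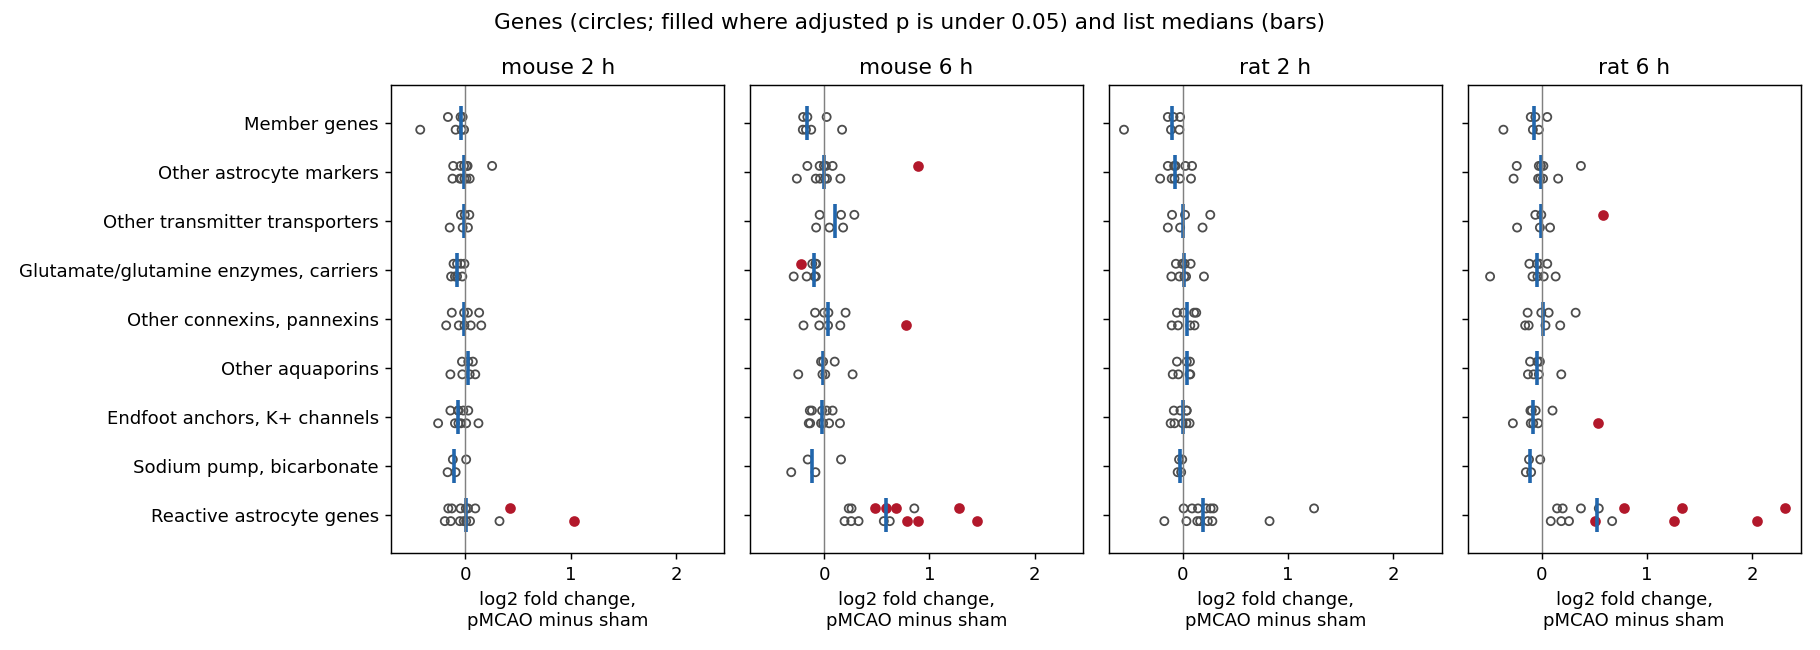
Log2 fold change (pMCAO minus sham) of every measured gene of the 7 members and the fixed lists in the 4 comparisons, filled where limma's adjusted p is under 0.05, with the list median as a blue bar. The members lie between -0.56 and 0.17, while the reactive astrocyte list reaches 1.45 in mouse and 2.32 in rat at 6 h. The lists were chosen with earlier results of these data known.

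The labelled tissue was checked against other markers. Of 12 further astrocyte markers in mouse and 10 in rat, Gfap in mouse at 6 h was the 1 that passed. Their mean level per array was 8.34 to 8.40 in mouse pMCAO animals at 2 h, against 8.35 to 8.41 in sham animals, and 8.28 to 8.40 in pMCAO animals at 6 h, against 8.25 to 8.34 in sham animals. In rat it was 9.17 to 9.23 after pMCAO at 2 h, against 9.23 to 9.28 after sham surgery, and 8.47 to 8.52 after pMCAO at 6 h, against 8.44 to 8.52 after sham surgery. By level among all genes these markers ranged widely. Aldoc, an astrocyte enzyme gene, lay at percentile 99.2 or higher in each comparison, while Sox9 lay at percentile 25.1 in 6 h rats.

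Of 13 marker lists, those whose mean level per array did not overlap between pMCAO and sham numbered 3 in 2 h mice, 5 in 6 h mice, 4 in 2 h rats and 5 in 6 h rats. Over all genes taken singly, the groups were apart in either direction for 14.6%, 25.3%, 13.1% and 24.5% in that order. A list mean is not a single gene, so these shares are only a rough guide. Neutrophil markers were higher in 3 of these comparisons. They averaged 5.12 to 5.39 in mouse pMCAO animals at 2 h, against 4.91 to 5.07 in sham animals (0 of 6 past the threshold), 6.26 to 6.62 after pMCAO in 2 h rats, against 5.77 to 5.95 after sham surgery (0 of 5), and 5.46 to 6.06 after pMCAO in 6 h rats, against 5.03 to 5.06 after sham surgery (2 of 5 rose, S100a9 and Mmp8). Oligodendrocyte precursor markers were lower at 2 h in both species, at 6.99 to 7.08 in mouse pMCAO animals, against 7.16 to 7.17 in sham animals, and 8.08 to 8.16 in rat pMCAO animals, against 8.22 to 8.27 in sham animals, with 0 of 6 past the threshold in each. The 3 comparisons in which neutrophil markers were apart are those in which the Gjb6 groups were apart, and the part of either list in the Gjb6 result was not tested.

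In 6 h mice, beside the striatal list given above, neuron markers averaged 10.03 to 10.10 in pMCAO animals, against 10.13 to 10.17 in sham animals (1 of 10 fell, Stmn2), and cortical excitatory neuron markers 8.92 to 8.97 in pMCAO animals, against 9.07 to 9.10 in sham animals (2 of 7 fell, Neurod6 and Rorb). Microglia markers averaged 7.43 to 7.58 in pMCAO animals, against 7.63 to 7.71 in sham animals (2 of 7 fell, P2ry12 and Csf1r), and oligodendrocyte markers were higher, at 9.20 to 9.30 in pMCAO animals, against 8.86 to 9.19 in sham animals (0 of 8). In 6 h rats microglia markers averaged 7.27 to 7.47 after pMCAO, against 7.49 to 7.55 after sham surgery (P2ry12 and Tmem119 fell and C1qb rose, of 7), and cortical markers 9.36 to 9.48 after pMCAO, against 9.57 to 9.67 after sham surgery (1 of 6 fell, Neurod6). Striatal and choroid plexus markers were higher after pMCAO in 6 h rats, with 0 of 9 and 0 of 6 past the threshold. In 2 h mice neuron markers averaged 10.33 to 10.36 in pMCAO animals, against 10.37 to 10.38 in sham animals, and in 2 h rats pericyte markers were higher and meningeal fibroblast markers lower after pMCAO, with 0 past the threshold in these 3 lists. The part of these markers in the members' values was not tested, apart from the striatal covariate.

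The genes whose pattern over the 12 arrays of a species was most like the members', after each time's mean was subtracted, are given as a description. Over 17342 mouse genes the members' mean correlated most with Elk4 (Pearson r = 0.94), Atg4b (0.94), Tns3 (0.94), Sgcb (0.91) and F13a1 (0.91). Over 16506 rat genes the closest were Zfp715 (0.89), Prmt6 (0.89), Mlc1 (0.88), a membrane protein gene of astrocyte endfeet, Prelid3a (0.88) and C19h1orf131 (0.86). For Gjb6 alone the closest was Sult1a1 in mouse (0.95) and Gramd2b in rat (0.97). The Slc6a11 pattern in mouse was closest to Kcnj16 (0.93), a potassium channel subunit gene on the endfoot list. The arrays share their groups and their normalization, and the highest of so many correlations over 12 points is high by selection.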

How the data were processed

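RNA of 24 animals was measured on whole-transcript arrays. The titles gave each sample's group and replicate number; a separate time label reads 2 h for all samples and was not used. The authors deposited log2 values per transcript cluster, 12 arrays a species, and per the submitters' processing notes used oligo and limma. Normalization, background correction and build: not given in the sources used here. Detection calls were not used here. Per the labels' protocols the RNA integrity number was above 7.5.

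Symbols came from the platform annotation, keeping clusters with a single symbol (23521 of 41345 in mouse, 18511 of 36685 in rat) and the cluster with the highest mean where a symbol had several. Group means were fitted to the 12 arrays of a species with limma 3.58.1 (R 4.3.3; 8 residual degrees of freedom), with Benjamini-Hochberg adjustment over all genes. For 3 against 3 animals the smallest exact permutation p is 0.1. Species effects were compared with Welch-Satterthwaite degrees of freedom. The fits were tested on simulated data. The named genes are all 7 members, up to 4 genes per list and comparison past the threshold, and the genes of most like pattern (the 5 closest to the members' mean and 1 per member), leaving out symbols of unnamed or predicted genes and of olfactory, vomeronasal, micro- and small nucleolar RNA families. Slc4a4, Kcnj10, Aldoc, Sox9 and, in rat, Ptx3, S1pr3, Gfap and Vim were named after their values were seen. So were the mouse Emp1 value at 6 h and the rat Hspb1 value at 2 h. The species test of Gjb2 was not planned beforehand. The members, lists and the rule were chosen with earlier results of these data known.

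Alternatives were normalization, filter, fit, array weights, replicate block, a striatal marker covariate and leaving out each animal. At 6 h the striatal level was apart between pMCAO and sham in both species, so the covariate fit could not tell its part from that of surgery. At most 2.54% of clusters had the same value on any pair of arrays. Deviations of same-numbered pMCAO and sham animals correlated between -0.12 and 0.33, so the numbers were not taken to pair animals.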

Additional observations from a re-analysis of the deposited data

Results flagged for a closer look

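The effect of pMCAO on Gjb2 at 6 h differed between species in a test of the difference itself. It was 0.78 in mouse and -0.13 in rat, a difference of 0.91 ± 0.21 on the log2 scale (95% interval 0.48 to 1.35, adjusted p = 0.0238 over 14204 matched symbols, from the 2 limma fits with n = 3 per group). The difference missed the threshold with the striatal marker covariate (adjusted p = 0.136) and without rat pMCAO replicate 2 or 3 or rat sham replicate 1 or 2 (adjusted p 0.0600 to 0.0829). Of all matched symbols, 2.27% passed at 6 h. Gjb2 is not a member, and its species test was not planned. Species, side of occlusion and array probes differed together, so they cannot be told apart here.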

How the results depend on the processing

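Of the counts of members past the threshold, 1 of 96 moved with an animal left out and 11 of 78 under other settings. In mouse at 6 h the count went to 1 (Slc1a2) under median centring, with genes above the median level only, and with a trended, robust spread. For the mouse mean of the 2 h and 6 h effects it was 1 (Gjb6) under median centring and with genes above the median level only, 2 (Gjb6, and Slc6a11 with adjusted p = 0.0448) with the trended, robust spread, and 0 to 1 with an animal left out. In rat at 2 h it was 1 (Gjb6) with array weights. In rat at 6 h it was 1 (Gjb6) with genes above the median level only, with the trended, robust spread and with the replicate block (-0.36, adjusted p = 0.0351), and the block changed no other count of members past the threshold; replicate numbers were not taken to pair animals. For the species difference at 6 h it was 1 (Slc1a2, adjusted p = 0.0176) with the trended, robust spread. The causes were not tested.

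Of 503 member fold changes under settings that kept all animals, 11 turned in sign, none of them past the threshold. With the striatal covariate these were Slc1a2 in mouse at 2 h (0.00331), the change over time of Slc6a11 in mouse (-0.0360), the mean effect of Slc1a3 in mouse (0.00773), Slc1a3 in rat at 2 h (0.0458), the change over time of Gja1 in rat (-0.182) and the species difference of Gja1 at 2 h (-0.0941). Under quantile normalization they were the mean effect of Slc1a3 in mouse (0.00528), Slc1a2 in rat at 6 h (-0.0153) and the mean effect of Slc1a2 in rat (-0.0308, and -0.00333 under median centring). The other Glul cluster gave 0.0367 in mouse at 2 h. With an animal left out, 37 of 612 turned. Ranges for the effects were -0.10 to 0.0583 for Aqp4, -0.0567 to 0.0233 for Slc1a2 and -0.07 to 0.04 for Slc1a3 in mouse at 2 h, -0.015 to 0.08 for Slc1a3 in mouse at 6 h, -0.122 to 0.0233 for Slc1a3 in rat at 2 h, and -0.14 to 0.005 for Slc1a3 and -0.0783 to 0.00667 for Slc6a11 in rat at 6 h. For the mean effect of Slc1a3 in mouse the range was -0.0233 to 0.0317. For the changes over time they were -0.10 to 0.08 for Gja1 and -0.113 to 0.0383 for Slc1a3 in rat, and -0.0167 to 0.107 for Slc1a3 and -0.0783 to 0.0617 for Slc6a11 in mouse. For species differences at 2 h they were -0.09 to 0.09 for Gja1, -0.0233 to 0.0567 for Slc1a2 and -0.132 to 0.00833 for Slc6a11. Gjb6 stayed below 0 in each comparison of pMCAO with sham under all settings run. The deposited values did not allow another background correction, and with no detection calls used here a dim signal could not be told from background.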
